A study of Homo sapiens with 12 samples.

Results

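A set of 32 genes of glucose uptake, glycolysis and the handling of pyruvate and lactate was taken by name, with earlier results of these data known. Of them 30 were measured, among 11963 genes in all. Each gene was represented by the probe set, a group of short probes against 1 transcript region, that named it alone and had the highest mean over the 12 arrays. The lactate carriers SLC16A1 and SLC16A3 are not analysed here, so of that step only SLC16A7, a related carrier outside the set, is described below. The set covers 2 glucose transporters, 2 hexokinases, GPI and PGM1, 3 phosphofructokinase 1 subunits, 3 PFKFB enzymes, 2 aldolases, TPI1, GAPDH, PGK1 and PGAM1, 3 enolases, pyruvate kinase, 2 lactate dehydrogenases, 4 pyruvate dehydrogenase kinases and 2 subunits of pyruvate dehydrogenase.

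The cells were RCC4, an established line derived from a human renal cell carcinoma, with no functional VHL of its own as general background. One derivative is labelled Vec, here taken as the vector control, and the other VHL, which the series design calls reconstituted with VHL. Nothing is said of how the derivatives were made or whether either is 1 clone. Vec and VHL cells were each held for 6 h in full DMEM (control) or in cystine-deprived DMEM, with 3 arrays in each of the 4 groups. Serum was at 10% in both media, with dialysed serum named only for the deprived one, so loss of cystine and a change of serum cannot be told apart. The labels call the 3 arrays of a group biological replicates without saying that they came from separate cultures, and p-values measure the spread between these arrays. RNA of whole cultures was measured, so a lower level in some cells and a lower level in all cells cannot be told apart.

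Glucose enters cells through facilitative transporters, is trapped by hexokinase and is split in a chain of cytosolic reactions that ends in pyruvate. Pyruvate is either reduced to lactate by lactate dehydrogenase or enters mitochondria and is oxidised by pyruvate dehydrogenase, which the PDK kinases switch off by phosphorylation. The VHL protein sends the oxygen-regulated subunits of hypoxia-inducible factor (HIF) to degradation, many genes of this pathway are textbook HIF targets, and clear cell renal carcinomas are known for high glycolysis. The comparisons asked how the isoforms of each step differed between Vec and VHL cells, and whether cystine deprivation moved them in either line.

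HIF is known to bind DNA at elements around the core ACGTG or close variants of it, and the 250 bases before the start sites of the genes were searched for ACGTG on both strands, where it reads CACGT on the strand shown. The sequences below were taken from RefSeq on GRCh38.p14 and read 5′ to 3′ in the direction of the gene, with each match in capitals. ENO2 and ENO3, and LDHA and LDHB, are shown as isoforms that moved in opposite directions, with ENO2 and LDHA lower and ENO3 and LDHB higher in VHL cells. The phosphofructokinase 1 subunits also moved in opposite directions and are not shown. There PFKM, which was higher, held the core in 1 of 7 windows. PFKP and PFKL, which were lower, held it in 1 of 4 and 0 of 1. SLC2A1 is shown as a gene with a large fall and no match. The palindrome CACGTG, which is also an E-box, holds the core on both strands and counts as 2 matches.
ENO2, chr12:6914330-6914579, plus strand: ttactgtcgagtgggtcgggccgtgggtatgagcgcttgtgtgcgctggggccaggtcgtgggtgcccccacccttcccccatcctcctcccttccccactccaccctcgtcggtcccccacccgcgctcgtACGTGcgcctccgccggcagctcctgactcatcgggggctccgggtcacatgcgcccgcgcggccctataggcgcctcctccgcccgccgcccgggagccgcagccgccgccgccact
ENO3, chr17:4950302-4950551, plus strand: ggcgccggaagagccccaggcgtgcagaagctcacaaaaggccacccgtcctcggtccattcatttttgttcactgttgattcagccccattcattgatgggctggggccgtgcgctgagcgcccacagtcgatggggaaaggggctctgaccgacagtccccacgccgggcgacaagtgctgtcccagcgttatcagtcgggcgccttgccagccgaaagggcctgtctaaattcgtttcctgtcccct
LDHA, chr11:18394313-18394562, plus strand: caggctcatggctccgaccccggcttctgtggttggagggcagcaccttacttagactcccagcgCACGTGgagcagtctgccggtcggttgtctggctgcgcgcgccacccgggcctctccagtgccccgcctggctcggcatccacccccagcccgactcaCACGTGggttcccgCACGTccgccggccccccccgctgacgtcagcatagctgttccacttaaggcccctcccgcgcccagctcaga
LDHB, chr12:21657843-21658092, minus strand: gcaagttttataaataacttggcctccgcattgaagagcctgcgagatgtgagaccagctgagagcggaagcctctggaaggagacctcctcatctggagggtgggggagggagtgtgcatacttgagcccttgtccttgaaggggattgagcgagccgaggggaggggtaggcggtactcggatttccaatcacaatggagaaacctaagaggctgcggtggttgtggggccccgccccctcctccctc
SLC2A1, chr1:42958869-42959118, minus strand: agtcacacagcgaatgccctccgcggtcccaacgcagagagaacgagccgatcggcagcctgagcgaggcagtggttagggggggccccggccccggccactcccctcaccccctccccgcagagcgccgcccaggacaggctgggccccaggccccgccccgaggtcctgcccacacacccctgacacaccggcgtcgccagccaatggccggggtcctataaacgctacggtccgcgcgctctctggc
The ENO2 window held 1 match, 118 bases before the start. The LDHA window held 5, of which 4 lie in 2 palindromes. LDHA has 2 windows listed, and the one with more matches is shown. The ENO3, LDHB and SLC2A1 windows held 0 matches, as did a second ENO3 window.

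Over all genes with a window, 6501 of 35116 windows (18.5%) held the core, and 5935 of 27305 gene symbols (21.7%) held it in at least 1. These symbols outnumber the 11963 genes measured, and the share over the measured genes alone was not taken. Of the measured members, 28 had a window, and 17 of them (60.7%) held the core in at least 1; by window the count was 20 of 55 (36.4%). Of the 17 genes with a window that were lower in VHL cells in both media, 12 (70.6%) held it. Of the genes that were higher 1 of 3 (PFKM) held it, and of the others 4 of 8. Genes with several start sites had more chances of a match: HK1 and PFKM had 7 windows each. SLC2A1, HK1, PFKL, PGAM1 and PDHA1 fell in both media with no match in these windows, and GAPDH, PDHB, PFKFB3 and PDK2 held a match without being called in both. A match is a run of letters and not evidence of binding, and its absence says only that these letters are not in this window.

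The deposited values are on a log2 scale, so a difference of 1 is a 2-fold change. The 12 arrays had medians from 7.12 to 7.18 and upper quartiles from 9.15 to 9.18. Values of different probe sets are not compared as levels. A gene with a mean over 12 arrays at or under 6.96, the 40th percentile of all genes, is called dim here: 7 members were, namely PFKFB2, PFKFB4, ENO3, PDK1, PDK2, PDK3 and PDK4. At the other end, 7 members had means of 13 or more, against a highest value on any array of 14.79, and whether such bright probe sets understate differences was not tested. The SD within a group of 3 had a median of 0.057 over the members and ranged from 0.0068 to 0.26. Of 13 kidney epithelium and clear cell carcinoma markers measured, 12 were above the dim level, while 6 of 7 proximal tubule markers were dim, among them CUBN and LRP2, as were 5 of 6 blood and 5 of 5 endothelial markers. The log2 of the summed tubule markers was 8.56 to 8.66 in Vec and 9.01 to 9.16 in VHL cells. That of the kidney and carcinoma markers was 15.33 to 15.39 against 14.95 to 15.02. Single markers did not all follow their sum. In control medium MME averaged 6.953 in Vec and 7.996 in VHL cells. The other tubule markers differed less, and CUBN (4.516 and 4.463) and LRP2 (4.57 and 4.52) did not rise. Of the kidney and carcinoma markers, COXFA4L2 (12.18 and 6.492) and KRT19 (10.18 and 8.821) were among those that fell. PAX8 (10.96 and 10.85) differed little, and CDH16 (8.067 and 9.153) rose. The sums thus do not show a shift of all markers, and their part in the results below was not tested. The sums of the blood markers (8.31 to 8.48) and of the endothelial markers (7.55 to 7.66) overlapped between the lines. VHL itself was read by a dim probe set with values from 5.80 to 6.07 over the 12 arrays and was not called in any comparison (control medium 0.14 ± 0.055, limma adjusted p = 0.0532), so the array does not show the reconstitution. COXFA4L2, a strong HIF target in this carcinoma, averaged 12.18 and 12.17 in Vec cells in the 2 media and 6.49 and 6.67 in VHL cells.

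In VHL cells all measured genes of 4 groups, the glucose transporters, the hexokinases, GPI with PGM1, and the aldolases, were lower in both media. Every other group held at least 1 gene that was higher or not called, and PKM and, in control medium, the PFKFB enzymes held none that was lower. In control medium 19 of 30 members (63.3%) were lower than in Vec cells at a limma adjusted p under 0.05 over all genes, where 23.0% of all genes were, and 3 (PFKM, ENO3 and LDHB) were higher, where 23.1% of all genes were. In deprived medium 19 were lower, against 23.0% of all genes, and 4 were higher, against 24.2%. The median difference over the members was -0.47 in each medium, against -0.00082 and 0.0035 over all genes. As the members were chosen with earlier results known, the shares and medians describe the set and are no test of it. Falls of at least 2-fold were seen for the same 7 members in each medium, SLC2A1, SLC2A3, HK1, HK2, ALDOC, ENO2 and PDK1 (23.3%), where 2.23% and 2.19% of all genes fell as far. In 21 members the 3 VHL control values all lay below the 3 Vec control values, as in 26.5% of all genes, and in deprived medium in 20, as in 26.4%. The same 18 members (60%) were lower in both media, as were 19.2% of all genes, and 3 (10%) were higher in both, as were 19.8%. The other 9 were PFKFB2, PFKFB3, PFKFB4, GAPDH, ENO1, PKM, PDK2, PDK4 and PDHB.

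**Figure D1:**
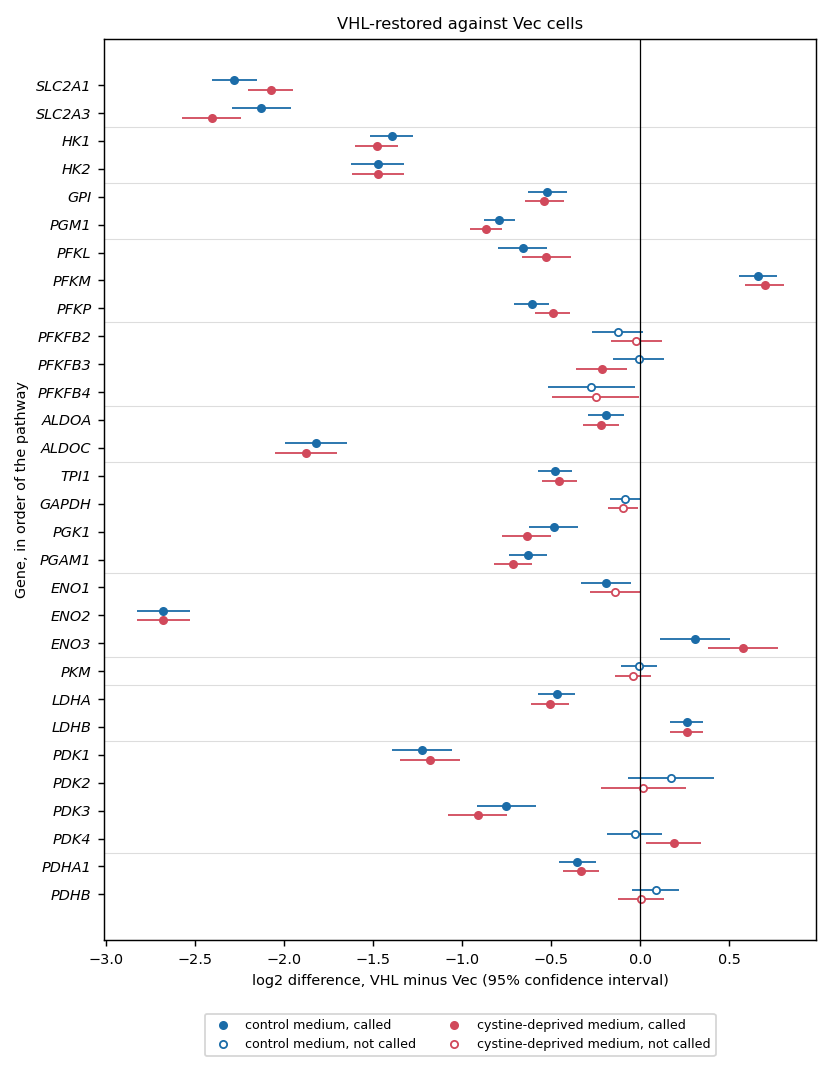
Log2 difference between VHL and Vec cells for the 30 measured genes in pathway order, in control (blue) and cystine-deprived (red) medium, with 95% confidence intervals of the limma fit (3 arrays per group); filled points have an adjusted p under 0.05. ENO2 (-2.68 in both media), SLC2A1, SLC2A3 and ALDOC lie farthest to the left, while PFKM, ENO3 and LDHB lie to the right of 0 in both media.

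Both glucose transporters fell in VHL cells. SLC2A1 encodes GLUT1, the transporter of basal glucose uptake in most cells, and its log2 level was 12.27, 12.25 and 12.18 on the Vec control arrays, 12.28, 12.34 and 12.29 on the Vec deprived arrays, 9.99, 9.87 and 9.99 on the VHL control arrays and 10.28, 10.30 and 10.11 on the VHL deprived arrays. No VHL array came within 1 log2 unit of a Vec array. The VHL minus Vec difference was -2.28 ± 0.058 in control medium (4.86-fold lower, limma adjusted p = 4.4e-12) and -2.08 ± 0.058 in deprived medium (4.22-fold, 1.13e-11). SLC2A3 encodes the high-affinity transporter GLUT3, and its log2 level was 8.07, 7.99 and 8.15 on the Vec control arrays, 8.35, 8.39 and 8.23 on the Vec deprived arrays, 5.90, 5.87 and 6.06 on the VHL control arrays and 5.91, 5.78 and 6.05 on the VHL deprived arrays. Again the groups of the 2 lines did not overlap, and the difference was -2.13 ± 0.076 in control medium (4.38-fold lower, limma adjusted p = 1.3e-10) and -2.41 ± 0.076 in deprived medium (5.31-fold, 3.78e-11). SLC2A3 was above the dim level in Vec cells and under it in VHL cells, and how far background signal limits its fold was not tested. The falls of the transporters differed by 0.089 over both media (exact permutation test within media, two-sided, p = 0.435, adjusted over 19 isoform pairs 0.517). This value averages opposite shifts, -0.15 in control medium, where SLC2A1 fell more, and 0.33 in deprived medium, where SLC2A3 did. It thus does not show equal falls within a medium. The value over both media turned to -0.93 with the mean of each gene's probe sets and to -1.79 with the second brightest (adjusted p = 0.00633 and 0.00594, exact permutation test).

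**Figure D2:**
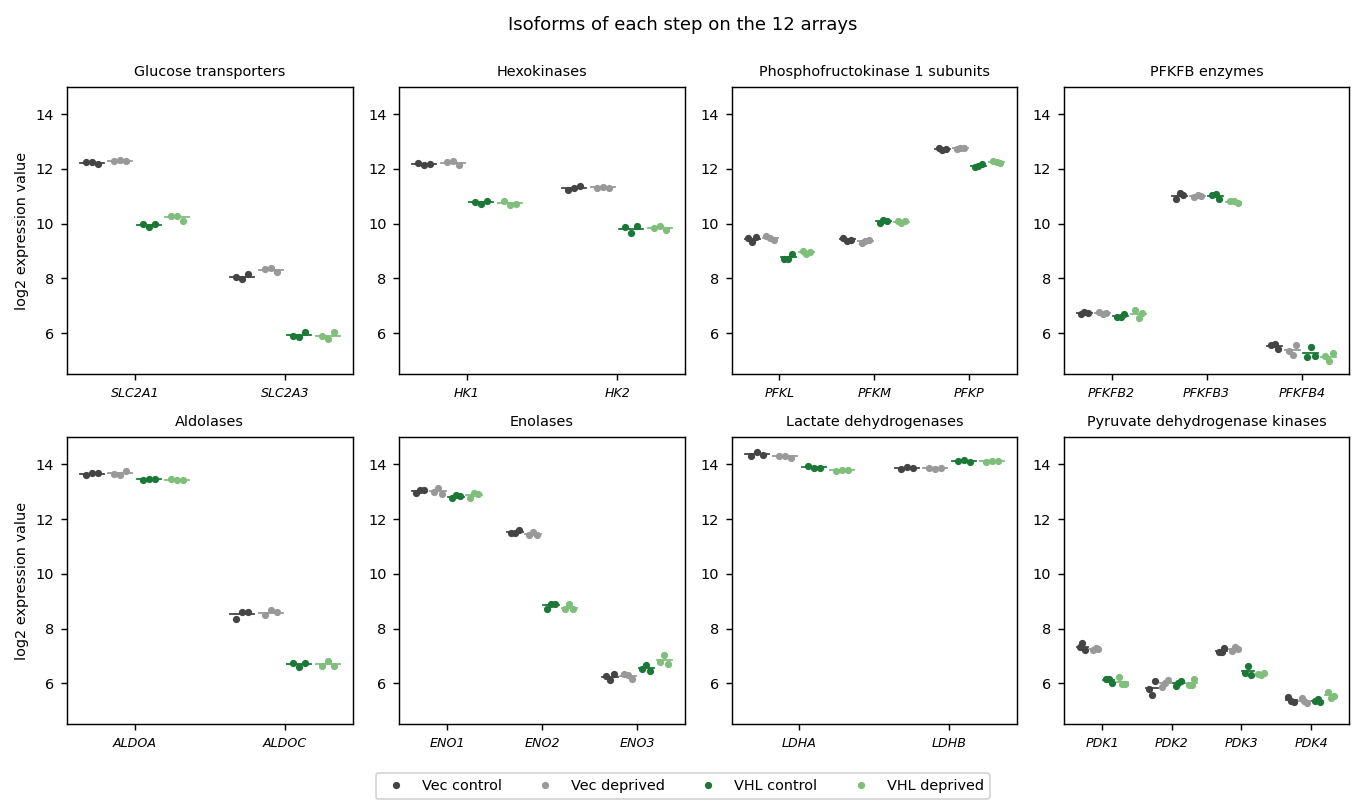
Log2 expression value on each of the 12 arrays for the isoforms of 8 steps; each point is 1 array, each short line the mean of 3, grey for Vec and green for VHL cells, darker for control and lighter for deprived medium. Within a step 1 isoform can drop far in VHL cells while another stays level or rises, as ENO2 against ENO3, and LDHA and LDHB move in opposite directions by less than 1 log2 unit each; heights of different genes are not comparable.

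The hexokinases, which phosphorylate glucose in the first step, fell together by their brightest probe sets. HK1, the broadly expressed form, had log2 levels of 12.21, 12.14 and 12.19 on the Vec control arrays, 12.26, 12.28 and 12.16 on the Vec deprived arrays, 10.78, 10.73 and 10.85 on the VHL control arrays and 10.85, 10.69 and 10.72 on the VHL deprived arrays. HK2, the form known for induction in tumours and by HIF, had 11.23, 11.30 and 11.37 on the Vec control arrays, 11.32, 11.35 and 11.32 on the Vec deprived arrays, 9.89, 9.66 and 9.92 on the VHL control arrays and 9.86, 9.93 and 9.78 on the VHL deprived arrays. For both genes every VHL array lay over 1 log2 unit under every Vec array. HK1 fell by 1.40 (SE 0.056, 2.63-fold, limma adjusted p = 3.96e-10) in control and by 1.48 (2.79-fold, 2.31e-10) in deprived medium, and HK2 by 1.48 (SE 0.068, 2.78-fold, limma adjusted p = 1.36e-09) and 1.47 (2.78-fold, 1.33e-09). The falls differed by 0.036 over both media (exact permutation test, adjusted p = 0.581). The second HK2 probe set, with a mean of 7.14 against 10.58, did not show the fall: it gave 0.078 and 0.079 in the 2 media (limma adjusted p = 0.383 and 0.371 over all probe sets that name 1 gene). With that probe set HK1 fell more than HK2 by 1.52, and with the mean of both by 0.74 (exact permutation test, adjusted p = 0.00594 and 0.00633). Which HK2 probe set reads the transcript of these cells was not tested.

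GPI and PGM1 act on glucose 6-phosphate, GPI converting it to fructose 6-phosphate and PGM1 linking it to glycogen. The log2 level of GPI was 11.96 ± 0.0068 and 12.05 ± 0.058 in Vec cells in control and deprived medium and 11.44 ± 0.082 and 11.51 ± 0.017 in VHL cells (mean ± SD, n = 3). That of PGM1 was 11.46 ± 0.013 and 11.50 ± 0.04 in Vec cells in control and deprived medium and 10.67 ± 0.02 and 10.63 ± 0.012 in VHL cells (mean ± SD, n = 3). Neither gene's VHL arrays overlapped its Vec arrays. GPI fell by 0.52 and 0.54 in control and deprived medium (1.44-fold and 1.45-fold, limma adjusted p = 1.5e-06 and 1.08e-06), and PGM1 by 0.79 and 0.87 (1.73-fold and 1.82-fold, 3.97e-09 and 1.64e-09).

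The 3 subunits of phosphofructokinase 1, the enzyme of the first committed step, went in different directions. PFKL, the liver-type subunit, had log2 levels of 9.46, 9.35 and 9.51 on the Vec control arrays, 9.56, 9.50 and 9.39 on the Vec deprived arrays, 8.73, 8.73 and 8.88 on the VHL control arrays and 8.995, 8.90 and 8.96 on the VHL deprived arrays. PFKP, the platelet-type subunit, had 12.78, 12.68 and 12.74 on the Vec control arrays, 12.74, 12.77 and 12.75 on the Vec deprived arrays, 12.09, 12.10 and 12.18 on the VHL control arrays and 12.29, 12.26 and 12.23 on the VHL deprived arrays. PFKM, the muscle-type subunit, had 9.49, 9.38 and 9.40 on the Vec control arrays, 9.31, 9.38 and 9.41 on the Vec deprived arrays, 10.04, 10.13 and 10.09 on the VHL control arrays and 10.09, 10.01 and 10.10 on the VHL deprived arrays. The VHL arrays lay under all Vec arrays for PFKL and PFKP and over all of them for PFKM. The differences in control and deprived medium were -0.66 and -0.53 for PFKL (limma adjusted p = 1.38e-06 and 1.09e-05), -0.61 and -0.49 for PFKP (1.32e-07 and 9.82e-07), and 0.66 and 0.70 for PFKM (1.6e-07 and 9.34e-08). In folds PFKM was 1.58-fold and 1.62-fold higher, the largest rise among the 30 members in each medium. The difference of PFKL minus PFKM moved by -1.27 between the lines and that of PFKM minus PFKP by 1.23 (exact permutation test within media, p = 0.005, the smallest that 400 arrangements give, adjusted 0.00792 for each). The falls of PFKL and PFKP differed by -0.044 (adjusted p = 0.279, exact permutation test).

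The PFKFB enzymes make and remove fructose 2,6-bisphosphate, the main activator of phosphofructokinase 1, and 1 of their 6 differences between the lines was called. PFKFB3, the form with the strongest kinase activity, had log2 levels of 10.90, 11.13 and 11.04 on the Vec control arrays, 10.96, 11.06 and 11.03 on the Vec deprived arrays, 11.05, 11.10 and 10.91 on the VHL control arrays and 10.81, 10.84 and 10.75 on the VHL deprived arrays. The control groups overlapped, and the difference there was -0.0075 (95% interval -0.15 to 0.14, limma adjusted p = 0.947). In deprived medium it was lower in VHL cells by 0.22 (1.16-fold, limma adjusted p = 0.0154), a call lost without Vec deprived replicate 2 (-0.19, 0.0577) or VHL deprived replicate 3 (-0.19, 0.0607). PFKFB4, also a HIF target in textbooks, was dim, with log2 levels of 5.58, 5.62 and 5.44 on the Vec control arrays, 5.35, 5.23 and 5.58 on the Vec deprived arrays, 5.13, 5.51 and 5.17 on the VHL control arrays and 5.17, 4.98 and 5.26 on the VHL deprived arrays. Its lines overlapped in both media, and its differences of -0.27 ± 0.11 and -0.25 ± 0.11 did not pass (limma adjusted p = 0.0636 and 0.0888), though without VHL control replicate 2 the first was -0.40 (0.00862) and without Vec deprived replicate 2 the second was -0.33 (0.0428). PFKFB2, dim as well, gave -0.13 and -0.022 (limma adjusted p = 0.143 and 0.819), while its second probe set, with a mean of 4.81, gave 0.30 and 0.28 (0.00659 and 0.00897 over all probe sets that name 1 gene). None of the 3 PFKFB pairs was called over both media (adjusted p from 0.117 to 0.707, exact permutation test), but both pairs with PFKFB2 depended on its probe set. PFKFB2 minus PFKFB3 moved by 0.22 with the mean of probe sets and by 0.40 with the second probe set, against 0.037 above (adjusted p = 0.0238 and 0.00594, exact permutation test). That 0.037 averages -0.12 in control and 0.19 in deprived medium. PFKFB2 minus PFKFB4, at 0.19 above, moved by 0.37 with the mean, by 0.55 with the second probe set or without _x_at and _s_at probe sets, and by 0.26 without VHL control replicate 2 (adjusted p = 0.00633, 0.00594, 0.006 and 0.0219, exact permutation test). PFKFB2 and PFKFB4 lay at or under the dim level in all groups, and how far background signal limits these shifts was not tested.

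The aldolases, which split fructose 1,6-bisphosphate, both fell, ALDOC far more than ALDOA. ALDOC, the brain-type aldolase, had log2 levels of 8.34, 8.62 and 8.59 on the Vec control arrays, 8.49, 8.67 and 8.59 on the Vec deprived arrays, 6.75, 6.59 and 6.74 on the VHL control arrays and 6.65, 6.81 and 6.65 on the VHL deprived arrays. All VHL values were at or under 6.81 and all Vec values at or over 8.34. ALDOC fell by 1.82 (SE 0.081, 3.53-fold, limma adjusted p = 1.02e-09) in control medium and by 1.88 (3.67-fold, 7.59e-10) in deprived medium, to values under the dim level. ALDOA, the form of muscle and most other tissues, had log2 levels of 13.65 ± 0.038 and 13.66 ± 0.066 in Vec cells in control and deprived medium and 13.46 ± 0.034 and 13.44 ± 0.029 in VHL cells (mean ± SD, n = 3). Its lines did not overlap, and it fell by 0.19 and 0.22 (limma adjusted p = 0.00434 and 0.0016). ALDOA minus ALDOC moved by 1.64 between the lines over both media (exact permutation test, adjusted p = 0.00792).

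Of the enzymes from triose phosphate to phosphoglycerate, TPI1, PGK1 and PGAM1 fell, and whether GAPDH was called depended on the processing. TPI1, which interconverts the triose phosphates, had log2 levels of 13.27 ± 0.028 and 13.27 ± 0.039 in Vec cells in control and deprived medium and 12.79 ± 0.032 and 12.82 ± 0.042 in VHL cells (mean ± SD, n = 3). PGK1, the first enzyme of the chain to make ATP, had 13.48, 13.74 and 13.65 on the Vec control arrays, 13.61, 13.65 and 13.70 on the Vec deprived arrays, 13.15, 13.17 and 13.09 on the VHL control arrays and 12.96, 13.07 and 13.02 on the VHL deprived arrays. PGAM1, phosphoglycerate mutase, had 13.45 ± 0.073 and 13.42 ± 0.027 in Vec cells in control and deprived medium and 12.82 ± 0.051 and 12.71 ± 0.036 in VHL cells (mean ± SD, n = 3). For these 3 genes no VHL array reached a Vec array. The differences in control and deprived medium were -0.48 and -0.45 for TPI1 (limma adjusted p = 1.02e-06 and 1.65e-06), -0.49 and -0.64 for PGK1 (2.44e-05 and 1.9e-06) and -0.63 and -0.71 for PGAM1 (2.25e-07 and 6.71e-08). In folds these were 1.4-fold to 1.6-fold falls. GAPDH, the dehydrogenase often used as a reference gene, read 14.43, 14.42 and 14.41 on the Vec control arrays and 14.31, 14.35 and 14.35 on the VHL control arrays. Its VHL values lay below its Vec values without overlap, but the differences of -0.087 ± 0.039 and -0.095 ± 0.039 missed the threshold (limma adjusted p = 0.0894 and 0.0624). Averaging its 3 probe sets brought both past it (-0.098 and -0.11, limma adjusted p = 0.0367 and 0.02). So did leaving out dim genes (limma adjusted p = 0.0355 and 0.0229) and a variance trend with robust moderation (0.003 and 0.00137). In deprived medium alone, quantile normalization (-0.13, 0.018) and its second probe set (-0.11, 0.0471) did as well.

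The enolases, which make phosphoenolpyruvate, ranged from the largest fall of the set to a rise. ENO2, the neuronal enolase, had log2 levels of 11.50, 11.47 and 11.59 on the Vec control arrays, 11.41, 11.52 and 11.41 on the Vec deprived arrays, 8.73, 8.92 and 8.89 on the VHL control arrays and 8.70, 8.91 and 8.70 on the VHL deprived arrays. The lines were over 2 log2 units apart on every pair of arrays. ENO2 had the largest fall of the 30 members in each medium, -2.68 ± 0.069 in control (6.41-fold, limma adjusted p = 5.36e-12) and -2.68 ± 0.069 in deprived medium (6.4-fold, 5.85e-12). ENO1, the ubiquitous enolase, had log2 levels of 12.93, 13.06 and 13.04 on the Vec control arrays, 12.98, 13.13 and 12.92 on the Vec deprived arrays, 12.77, 12.86 and 12.83 on the VHL control arrays and 12.76, 12.93 and 12.90 on the VHL deprived arrays. In control medium it was lower by 0.19 without overlap (limma adjusted p = 0.0276), and it gave -0.14 in deprived medium (0.0948), where the groups overlapped. The control call was lost without Vec control replicate 2 (-0.17, 0.0888) or 3 (-0.18, 0.0842), without VHL control replicate 1 (-0.17, 0.0934) or 3 (-0.20, 0.0526), and with each array centred on its median (-0.17, 0.0609). Without Vec deprived replicate 3 the deprived difference was -0.19 (0.0459). ENO3, the muscle enolase, was dim, with log2 levels of 6.27, 6.14 and 6.35 on the Vec control arrays, 6.34, 6.30 and 6.17 on the Vec deprived arrays, 6.54, 6.68 and 6.46 on the VHL control arrays and 6.79, 7.05 and 6.70 on the VHL deprived arrays. Its VHL values lay over its Vec values, and it was higher by 0.31 ± 0.09 in control (1.24-fold, limma adjusted p = 0.0122) and 0.58 ± 0.09 in deprived medium (1.49-fold, 0.000122). The control call was lost without Vec control replicate 2 (0.25, 0.0572) or VHL control replicate 2 (0.25, 0.0592). All 3 pairs moved apart between the lines (exact permutation test, adjusted p = 0.00792 each): ENO1 minus ENO2 by 2.51, ENO2 minus ENO3 by -3.12 and ENO1 minus ENO3 by -0.61.

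PKM, pyruvate kinase of most tissues and tumours, had log2 levels of 12.69, 12.67 and 12.65 on the Vec control arrays, 12.65, 12.68 and 12.79 on the Vec deprived arrays, 12.67, 12.65 and 12.67 on the VHL control arrays and 12.68, 12.67 and 12.64 on the VHL deprived arrays. The groups overlapped in both media, with differences of -0.0092 (95% interval -0.11 to 0.092) and -0.041 (-0.14 to 0.059). Its dimmer probe set, with a mean of 7.11, gave -0.36 in control medium (limma adjusted p = 0.0218 over all probe sets that name 1 gene) and -0.079 in deprived medium (0.634). The files do not separate the M1 and M2 splice forms.

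The lactate dehydrogenase subunits moved in opposite directions. LDHA, the subunit that favours the making of lactate, had log2 levels of 14.29, 14.43 and 14.35 on the Vec control arrays, 14.32, 14.31 and 14.24 on the Vec deprived arrays, 13.93, 13.88 and 13.86 on the VHL control arrays and 13.76, 13.80 and 13.79 on the VHL deprived arrays. LDHB, the subunit of heart and oxidative tissues, had 13.82, 13.89 and 13.86 on the Vec control arrays, 13.85, 13.83 and 13.88 on the Vec deprived arrays, 14.11, 14.16 and 14.10 on the VHL control arrays and 14.08, 14.14 and 14.13 on the VHL deprived arrays. All VHL arrays lay under all Vec arrays for LDHA and over them for LDHB. LDHA fell by 0.47 (1.39-fold, limma adjusted p = 2.88e-06) in control and by 0.51 (1.42-fold, 1.4e-06) in deprived medium, and LDHB rose by 0.26 in each (1.2-fold, 0.000189 and 0.000182). The LDHA minus LDHB difference moved by -0.75 over both media (exact permutation test, adjusted p = 0.00792). Its values ran from 0.46 to 0.54 in Vec control and from -0.28 to -0.18 in VHL control arrays, on which the scales of the 2 probe sets are not equal and only the shift is read.

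Among the pyruvate dehydrogenase kinases PDK1 and PDK3 fell, while PDK2 and PDK4 were not called lower. PDK1, the kinase best known as a HIF target, had log2 levels of 7.33, 7.46 and 7.22 on the Vec control arrays, 7.21, 7.30 and 7.24 on the Vec deprived arrays, 6.15, 6.17 and 6.01 on the VHL control arrays and 6.23, 5.99 and 5.98 on the VHL deprived arrays. PDK3, a kinase of the same family, had 7.14, 7.14 and 7.29 on the Vec control arrays, 7.20, 7.31 and 7.27 on the Vec deprived arrays, 6.39, 6.63 and 6.31 on the VHL control arrays and 6.35, 6.30 and 6.39 on the VHL deprived arrays. Both genes lay above the dim level in all Vec groups by their means and under it in VHL cells, with no overlap between the lines. PDK1 fell by 1.23 (SE 0.078, 2.34-fold, limma adjusted p = 2.76e-08) and 1.18 (2.27-fold, 3.85e-08), and PDK3 by 0.75 (1.69-fold, 2.25e-06) and 0.91 (1.88-fold, 3.62e-07), in control and deprived medium. PDK4, the kinase induced by fasting in muscle and liver, was dim, with log2 levels of 5.52, 5.35 and 5.33 on the Vec control arrays, 5.47, 5.37 and 5.27 on the Vec deprived arrays, 5.37, 5.42 and 5.31 on the VHL control arrays and 5.68, 5.46 and 5.54 on the VHL deprived arrays. In control medium it gave -0.032 (limma adjusted p = 0.77), and in deprived medium it was called higher in VHL cells by 0.19 (0.0477) although the groups overlapped. That call was lost without Vec deprived replicate 2 (0.19, 0.0964) or 3 (0.14, 0.177) and without VHL deprived replicate 1 (0.13, 0.191) or 3 (0.20, 0.0754). PDK2, dim and with the largest SD of the set (0.26 in Vec control), gave 0.17 and 0.018 (limma adjusted p = 0.235 and 0.912), and without Vec control replicate 3 the first was 0.31 (0.0172). Its second probe set, with a mean of 5.46, gave -0.0083 and -0.21 (limma adjusted p = 0.957 and 0.0868 over all probe sets that name 1 gene). Of the 6 kinase pairs 5 moved apart between the lines (exact permutation test, adjusted p = 0.00792 each), PDK1 against PDK2 by -1.30, against PDK4 by -1.28 and against PDK3 by -0.37. PDK3 against PDK4 moved by -0.91 and PDK2 against PDK3 by 0.93, while PDK2 against PDK4 gave 0.018 (adjusted p = 0.92, exact permutation test). That 0.018 averages opposite shifts of 0.20 in control and -0.17 in deprived medium. PDK2 and PDK4 lay at or under the dim level in all groups, as PDK1 and PDK3 did in VHL cells, and how far background signal limits the sizes of these shifts was not tested.

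PDHA1 and PDHB encode the alpha and beta subunits of the E1 enzyme of pyruvate dehydrogenase, of which the alpha subunit carries the sites that the PDK kinases phosphorylate. PDHA1 had log2 levels of 11.36 ± 0.045 and 11.39 ± 0.052 in Vec cells in control and deprived medium and 11.01 ± 0.047 and 11.06 ± 0.034 in VHL cells (mean ± SD, n = 3). It fell without overlap by 0.35 and 0.33 (1.28-fold and 1.26-fold, limma adjusted p = 3.31e-05 and 5.69e-05). PDHB overlapped in both media and gave 0.086 (95% interval -0.044 to 0.22) and 0.0047 (-0.13 to 0.13).

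Over the 19 isoform pairs in all, 12 moved apart between the lines at an adjusted p under 0.05 (exact permutation test). In 8 of the 12, of the aldolases, ENO3 and the PDK kinases, a gene lay at or under the dim level in VHL cells. The 12 were called on every set of arrays with 1 left out. With the mean of probe sets and with the second probe set 16 were called, the 12 and 4 more, SLC2A1 against SLC2A3, HK1 against HK2, and PFKFB2 against PFKFB3 and PFKFB4. Without _x_at and _s_at probe sets 6 pairs could be formed and 5 were called, 4 of them among the 12. Of all single genes 46.1% were called between the lines in control medium and 47.2% in deprived medium. How often pairs of other genes move apart was not tested.

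Of the 16 members with more than 1 probe set, 10 had the same call from all of them in control medium, 6 (HK2, PFKFB2, TPI1, GAPDH, ENO1 and PKM) had some called and some not, and 0 had calls in opposite directions. In deprived medium the counts were 12, 4 and 0. The sizes varied more than the calls. SLC2A1 gave -2.28 and -2.69, SLC2A3 -2.13, -0.87 and -1.43, PDK3 -0.75, -0.48 and -1.23, and PDHA1 -0.35 and -0.80 in control medium, from the brightest probe set down. PGK1 gave -0.49 with its brightest probe set and -0.93, -1.09 and -0.57 with the others, so the value above is the smallest of the 4. The third TPI1 probe set, with a mean of 6.97, gave -0.18 and -0.10 in the 2 media (limma adjusted p = 0.179 and 0.447). The brightest probe sets of PFKL, ALDOA, TPI1, GAPDH and LDHB carry the _x_at ending, which the maker gives where probes may also bind other transcripts, and signal from near-identical copies cannot be told apart there.

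**Figure D3:**
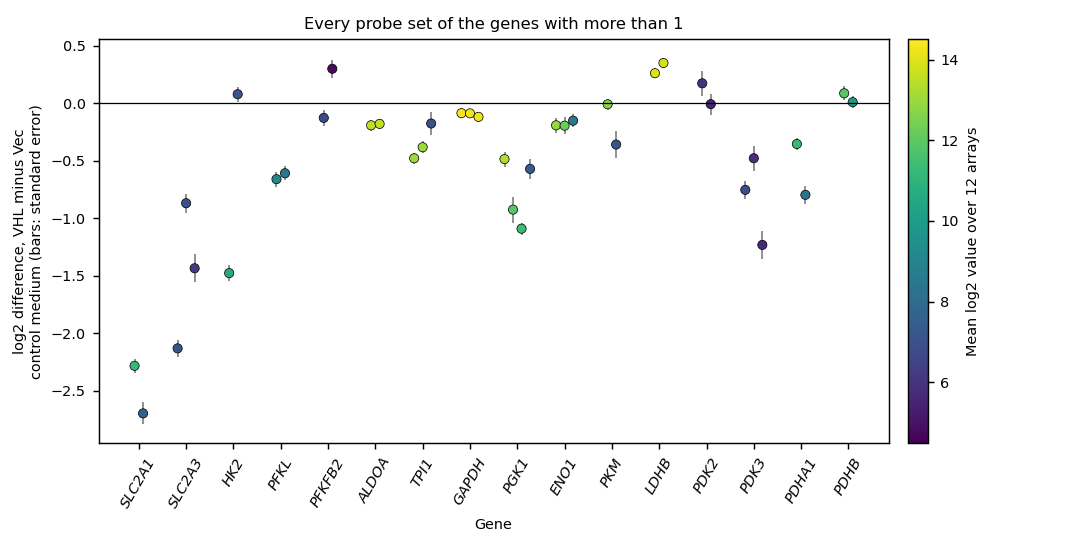
VHL minus Vec log2 difference in control medium for every probe set of the 16 genes that have more than 1, from the brightest on the left of each gene to the dimmest on the right, coloured by mean log2 value; bars are standard errors. The probe sets of HK2 (-1.48 and 0.078) and of PFKFB2 (-0.13 and 0.30) lie on different sides of 0, while the 4 of PGK1 all lie below it.

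Few members were called on cystine deprivation in either line. In Vec cells 0 of 30 members were called by limma, against 2.11% of all genes higher and 2.06% lower, and 1 had an unadjusted p under 0.05, against 16.6% of all genes. In VHL cells 1 member was called higher, against 6.16% of all genes, and 0 lower, against 5.48%, with 7 at an unadjusted p under 0.05, against 26.8%. The median difference over the members was 0.021 in Vec and -0.0037 in VHL cells. All 95% intervals of the members by their brightest probe sets lay between -0.41 (PFKFB4) and 0.42 (SLC2A3) in Vec cells and between -0.38 (PFKFB4) and 0.48 (ENO3) in VHL cells, so a 2-fold change lies outside all of them. The difference between the lines' responses was called for 0 of 30 members by limma, against 0.134% of all genes, and 3 had an unadjusted p under 0.05, against 9.83%. The Vec and VHL responses share no arrays.

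**Figure D4:**
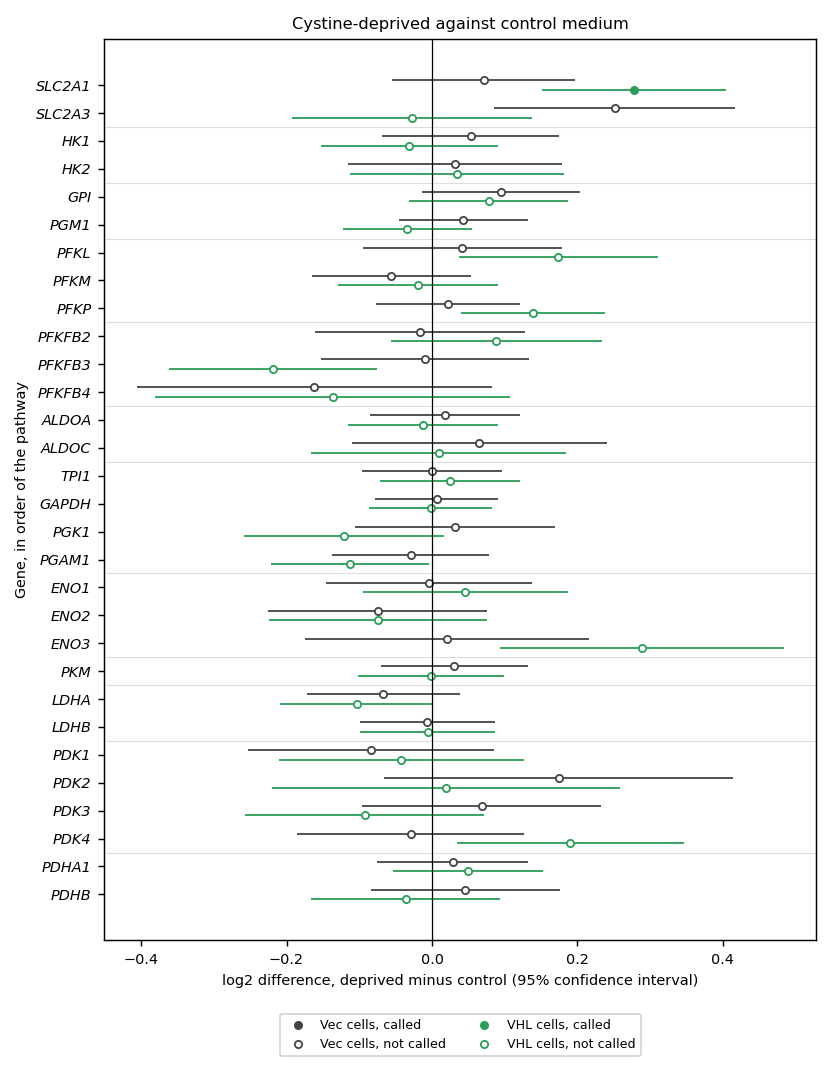
Log2 difference between cystine-deprived and control medium for the 30 genes in pathway order, in Vec (black) and VHL (green) cells, with 95% confidence intervals of the limma fit (3 arrays per group). SLC2A1 in VHL cells (0.28) is the 1 filled point, with an adjusted p under 0.05; the horizontal scale is narrower than in the plot of VHL against Vec cells.

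The called gene was SLC2A1, which rose on deprivation of VHL cells by 0.28 ± 0.058 (1.21-fold, limma adjusted p = 0.00882), from 9.87 to 9.99 on the control arrays to 10.11 to 10.30 on the deprived arrays. In Vec cells its difference was 0.071 (0.61), and the responses differed by 0.21 (0.435), which did not pass. The second SLC2A1 probe set gave -0.084 in VHL cells (limma adjusted p = 0.647 over all probe sets that name 1 gene), and the mean of both 0.097 (0.259), so the rise rests on 1 of 2 probe sets. SLC2A3 in Vec cells gave 0.25 ± 0.076 without overlap between the media (limma adjusted p = 0.0946), 0.0448 when dim genes were left out, against -0.027 in VHL cells (0.865).

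Other members of VHL cells stood close to the threshold. PFKFB3 gave -0.22 ± 0.066 (limma adjusted p = 0.0505), with all 3 deprived values under all 3 control values, and was called without VHL control replicate 3 (-0.27, 0.0256). ENO3 gave 0.29 ± 0.09 (0.0571) and was called without VHL deprived replicate 3 (0.36, 0.0369). PFKP gave 0.14 ± 0.045 (0.0677) and PFKL 0.17 ± 0.063 (0.0969), both called without VHL control replicate 3 (0.17, 0.0493 and 0.23, 0.0479). PDK4 gave 0.19 ± 0.072 (limma adjusted p = 0.109), PGAM1 -0.11 ± 0.05 (0.169), PGK1 -0.12 ± 0.063 (0.248) and LDHA -0.10 ± 0.049 (0.194). The remaining members differed by under 0.14 in VHL cells. Over both lines 0 of 19 isoform pairs were called on deprivation, with 5 at an unadjusted p under 0.05 (exact permutation test within lines). The smallest p that 400 arrangements give is 0.005, which PFKM minus PFKP reached, and 1 pair alone at that p has an adjusted p of 0.0950, so a single pair could not be called and the count of 0 does not show that pairs kept their difference. The mean of probe sets and the second probe set each gave 4 called pairs. Both choices called PFKL minus PFKM, PFKM minus PFKP and ENO2 minus ENO3, the mean also PFKFB2 minus PFKFB4 and the second probe set HK1 minus HK2 (adjusted p from 0.0317 to 0.0475, exact permutation test). PFKM minus PFKP (-0.12) and ENO2 minus ENO3 (-0.23) rest on genes with 1 probe set each, so their differences were those of the main run. For them only the adjusted p changed, through the p-values of the other pairs. Without _x_at and _s_at probe sets PFKFB2 minus PFKFB4 and ENO2 minus ENO3 were called (adjusted p = 0.045 each over the 6 pairs that could be formed, exact permutation test). The ENO2 minus ENO3 difference was again unchanged, so for it only the number of pairs adjusted over differed. Without Vec deprived replicate 3, PFKM minus PFKP (-0.13) and ENO2 minus ENO3 (-0.25) were called (adjusted p = 0.0475 each, exact permutation test).

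Genes around the pathway were taken from 5 lists by function, and the median VHL minus Vec difference of each in control medium is given beside -0.00082 over all genes. Their counts are set against 23.1% of all genes called higher and 23.0% called lower in control medium. Of 19 further glycolytic isozymes and transporters measured, of which 11 were dim, 2 were higher and 2 lower in VHL cells in control medium (10.53% each, median 0.0094). TIGAR, which removes fructose 2,6-bisphosphate, was higher by 0.30 ± 0.056 (limma adjusted p = 0.000541), GPD2, the mitochondrial glycerol phosphate dehydrogenase, higher by 0.25 ± 0.072 (0.0115), and HKDC1, a hexokinase-like gene, lower by 0.26 (0.01). The GPD2 call was lost with its second probe set (-0.21, 0.0676) or the mean of its probe sets (0.019, 0.85), and the HKDC1 call without Vec control replicate 1 (-0.21, 0.0504) or VHL control replicate 1 (-0.195, 0.0511). Of 9 genes of the pyruvate dehydrogenase complex, its phosphatases and the pyruvate and lactate carriers, 6 were higher (66.7%) and 1 lower (11.1%, median 0.39). SLC16A7, the high-affinity carrier MCT2 of pyruvate and lactate, was higher by 2.21 ± 0.11 in control and 2.10 ± 0.11 in deprived medium (4.64-fold and 4.29-fold, limma adjusted p = 1.79e-09 and 2.92e-09), with a Vec control mean of 5.89, under the dim level. DLD, the E3 enzyme of the complex, was higher by 0.87 and 0.76 (1.48e-07 and 5.15e-07), and MPC2, a subunit of the mitochondrial pyruvate carrier, by 0.61 and 0.61 (3.61e-07 and 3.28e-07).

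Of 8 gluconeogenesis genes 1 was higher (12.5%) and 2 were lower (25%) in VHL cells in control medium (median -0.045). PCK2, the mitochondrial PEP carboxykinase, was lower by 1.29 (2.44-fold, limma adjusted p = 3.07e-09), PC, pyruvate carboxylase, lower by 0.89 (1.57e-06), and SLC37A4, the glucose 6-phosphate carrier, higher by 0.28 (0.00102, but 0.0768 with its second probe set). PCK2 was the gene of these lists that deprivation moved most: it rose by 1.31 ± 0.065 in Vec and 2.0 ± 0.065 in VHL cells (2.48-fold and 4.01-fold, limma adjusted p = 1.08e-07 and 8.04e-10), and the responses differed by 0.70 ± 0.092 (0.00695). Its VHL minus Vec difference was -0.59 in deprived medium.

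Of 7 pentose phosphate genes 2 were higher (28.6%) and 3 lower (42.9%) in control medium (median -0.030), with TKT, transketolase, lower by 0.71 (limma adjusted p = 1.07e-07), PGLS, the lactonase of the pathway, by 0.33 (0.000142) and RPIA, the ribose phosphate isomerase, by 0.26 (0.00225). Of 12 glycogen genes 3 were higher (25%) and 5 lower (41.7%, median -0.077). PPP1R3C, a subunit that targets a phosphatase to glycogen, was lower by 1.89 (3.7-fold, limma adjusted p = 6.82e-09), GBE1, the branching enzyme, by 1.03 (7.13e-09), and GYS1, glycogen synthase, by 1.01 (2.95e-09). In deprived medium, where 24.2% of all genes were higher and 23.0% lower, the counts of higher and lower genes were 2 and 1 for the further isozymes, 6 and 0 for the pyruvate dehydrogenase list, 1 and 2 for gluconeogenesis, 3 and 3 for the pentose phosphate genes and 3 and 6 for glycogen. Besides PCK2, deprivation was called for PYGB, glycogen phosphorylase of brain type, at 0.17 in Vec and 0.25 in VHL cells (limma adjusted p = 0.0451 and 0.00239), and in VHL cells for TIGAR at -0.28 (0.00709), HKDC1 at 0.26 (0.0402) and GBE1 at -0.20 (0.0407). Of these, PYGB in Vec cells lost its call without any 1 of the 6 arrays compared (adjusted p from 0.0804 to 0.148), as did GBE1 (0.061 to 0.139), and HKDC1 did without 5 of 6, the exception being VHL control replicate 3 (0.0688 to 0.156).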

How the data were processed

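The deposited log2 expression values of 22215 probe sets on 12 single-colour Affymetrix arrays were used as given. That they are log2 was read from the values, and how the authors normalized them is not given in the sources used here. Per the labels' protocols, labelled targets were made from total RNA by amplification. Of the probe sets, 19064 named 1 gene, 1043 several and 2108 none. Symbols were updated through RefSeq. Depth is not defined for arrays, and the number of arrays limits the precision.

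One mean per group was fitted in limma 3.58.1 (R 4.3.3) over all 12 arrays (8 residual degrees of freedom, raised to 12.7 by moderation), and two-sided p-values were adjusted by Benjamini-Hochberg over 11963 genes. A gene is called at an adjusted p under 0.05, and ± is the standard error unless given as SD. Isoform pairs were compared by the difference of their log2 values per array, with arrays exchanged within media (lines) and adjustment over 19 pairs. Without _x_at and _s_at probe sets the adjustment was over the 6 pairs that could be formed. Both tests were checked on simulated data. Members with calls, and up to 3 called genes of each further list by smallest adjusted p, are named. Members, lists and rules were chosen with earlier results of these data known. The labels do not say that replicate numbers pair the arrays, and no pairing was used. Residuals of arrays of equal number correlated at a median of 0.053 (-0.27 to 0.24, 18 pairs). Those of other numbers correlated at -0.018 (-0.35 to 0.29, 36 pairs). These ranges overlap and cannot show whether the arrays were paired. Alternatives were quantile normalization, median centring, leaving out dim genes, other probe set choices, a variance trend with robust moderation, the compared groups alone, a replicate block and each array left out. The fit of each probe set on its own was added after seeing the data.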

Additional observations from a re-analysis of the deposited data

Results flagged for a closer look

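A pair of probe sets that the annotation assigns to both SLC2A3 and SLC2A14, a close relative of SLC2A3, lie outside the comparisons because they name more than 1 gene. Both were lower in VHL cells with no overlap between the lines. One gave log2 differences of -0.658 in control and -0.668 in deprived medium, from Vec control values of 7.26 ± 0.14 to VHL control values of 6.60 ± 0.23 (SD, n = 3). The other gave -1.446 and -1.572, from 7.74 ± 0.085 to 6.29 ± 0.16. Which of the 2 genes they read was not tested. Groups of 3 arrays were not tested for outlying samples, and no member's response to deprivation differed between the lines at an adjusted p under 0.05.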

How the results depend on the processing

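The falls of SLC2A1, SLC2A3, HK1, GPI, PGM1, PFKL, PFKP, ALDOA, ALDOC, PGK1, PGAM1, ENO2, LDHA, PDK1, PDK3 and PDHA1 and the rises of PFKM and LDHB between the lines kept their direction and call in every alternative that could be run for them. HK2 turned to 0.0781 and 0.0792 (control and deprived medium) with its second probe set. PFKFB2 turned to 0.299 and 0.284 with its second probe set or when probe sets named _x_at or _s_at were left out, and to 0.131 in deprived medium with the mean of its probe sets. TPI1 lost its calls without such probe sets (-0.18 and -0.10). SLC2A1 on deprivation of VHL cells turned to -0.0836 with the second probe set or without such probe sets. GPD2 turned to -0.211 in control medium with its second probe set. SLC2A1 minus SLC2A3 turned to -0.928 and -1.79, and HK1 minus HK2 to -0.741 and -1.52, with the mean and the second probe set.

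Leaving these probe sets out tests fewer genes: 3427 and 3505 genes were called between the lines in control and deprived medium, against 5520 and 5650, and 233 and 771 on deprivation of Vec and VHL cells, against 500 and 1392. It left no probe set for SLC2A3, GPI, PGM1, PFKL, PFKM, PFKFB3, ALDOA, GAPDH, PGAM1, ENO1, LDHA, LDHB and PDK2. Of the other members 10 were lower and 2 higher in each medium. Their medians were -0.753 and -0.784, and 5 isoform pairs were called. The second probe set gave a median of -0.426 in control medium. Without dim genes, 2 members were higher in each medium. On deprivation of Vec cells 770 genes and 1 member were then called, in VHL cells 3 members were higher and 1 lower, and 29 genes differed in response. With a variance trend these were 3 higher and 3 lower, and 45 genes. With the compared groups alone 311 and 835 genes were called on deprivation. On deprivation of VHL cells 1 member, PFKFB3, was lower with median centring or with the mean of probe sets, and 0 were higher with the mean, the second probe set or without _x_at and _s_at probe sets. Deprivation moved 4, 4 and 2 pairs apart with these 3 choices. Of these, PFKM minus PFKP and ENO2 minus ENO3 rest on genes with 1 probe set each. Their differences stayed as in the main run, and only the adjustment over pairs changed. Why the other calls changed was not tested. Neither scaling moved the median of all genes by over 0.03.

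With each array left out in turn, called genes ranged from 5085 to 5274, 5226 to 5416, 253 to 303 and 764 to 1302 over the 4 comparisons and from 11 to 16 for the difference of responses. Members lower between the lines ranged from 18 to 20 in each medium, higher from 2 to 4 and 3 to 4, and medians from -0.497 to -0.429 and -0.485 to -0.461. On deprivation 0 members were called in Vec cells, and in VHL cells 1 to 3 were higher and 0 to 1 lower. Isoform pairs ranged from 12 to 13 between the lines and 0 to 2 on deprivation.

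With the replicate number as a block, 1 member, PFKFB3, was lower on deprivation of VHL cells (limma adjusted p = 0.0375), and ENO1 was called in deprived medium (0.0452). For isoform pairs the block was a different test, in which the signs of differences between arrays of equal number were exchanged. By it PFKFB3 minus PFKFB4 was called between the lines at 0.15 (adjusted p = 0.0457, exact sign-flip test). PYGB in Vec cells (limma adjusted p = 0.0715) and HKDC1 in VHL cells (0.0561) lost their calls on deprivation. No other call of a member, pair or named list gene changed. The labels do not say that the numbers pair the arrays, so a call that differs under the block is not read as a weaker or stronger effect.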
